A study of Mus musculus with 8 samples.

Results

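The core circadian clock genes Arntl, Clock, Cry1, Cry2, Per1, Per2, Per3, Nr1d1, Nr1d2 and Dbp were followed in T helper cells cultured toward the Th17 fate, the fate in which CD4 T cells make interleukin 17. The 10 genes were chosen by name, and each was measured by 1 probe set that the platform table assigns to its symbol alone, so they make up 10 of the 21789 probe sets with a single symbol. Without RORγt, the transcripts of Nr1d1, Arntl and Cry1 fell and that of Dbp rose, in a comparison where 19.4% of all genes passed the test. The calls of Cry1 and Dbp were lost when single arrays were left out. None of the 10 passed without SRC-3, where only 0.225% of all genes did. By Xist, a transcript of female cells, the sex of the mice cannot be told apart from genotype in the RORγt comparison. Between the wild-type cells of the 2 experiments 7 of the 10 passed, where 58.5% of all genes did, and Per2 among them passed the filter only through the arrays on which it was high.

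RNA from 8 cultures was hybridised to 8 Affymetrix mouse gene arrays, 1 per culture, in 4 groups of 2 that the labels call biological replicates. The groups were SRC-3-deficient cells from mice written SRC-3 (f/f) with SRC-3 wild-type cells beside them, and RORγt-deficient cells from mice written RORgt (-/-) with the wild-type cells of that experiment. All 8 are labelled Th17 cells. The treatment text, which names wild-type and SRC-3-deficient cells alone, has naive CD4 T cells stimulated through CD3 and CD28 and ties the Th17 fate to IL-1, IL-6 and IL-23. The labels give no recombinase for the (f/f) allele, no strain, age or sex, no time of harvest, and no word on whether the replicates are different animals. The p-values therefore cover only the spread between these cultures. The number of arrays, 2 per group, limits the precision of every value.

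The clock is a loop of transcription factors. The proteins of Arntl (also called BMAL1) and Clock bind E-boxes and switch on the Period and Cryptochrome genes, whose proteins in turn hold back Arntl and Clock. A second loop runs through the nuclear receptors REV-ERBα and REV-ERBβ, made by Nr1d1 and Nr1d2, which repress Arntl from response elements that the ROR receptors use to activate it. RORγt, the receptor that directs the Th17 fate, belongs to that ROR family and shares this element with the REV-ERB proteins, and Dbp encodes an output factor that binds D-boxes. SRC-3, made by Ncoa3, is a coactivator that nuclear receptors recruit.

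These elements were looked for in RefSeq promoters of build GRCm38.p6, which reach from 250 bases before to 50 bases after a start site. The table held promoters of 9 of the 10 genes, with 13 start sites, and Per2 was not among them. Letters were matched on both strands: CACGTG for the E-box, TAGGTCA for the core of the ROR and REV-ERB element, the shorter core AGGTCA that lies inside it, and TTATGTAA or TTACGTAA for the D-box. Of all 32851 promoters, 7.15% held the E-box, 2.61% the ROR element core, 16.3% the shorter core, 0.938% TTATGTAA and 0.119% TTACGTAA. Counted by gene, over 27025 genes with any of their start sites, these shares were 8.09%, 2.97%, 18.1%, 1.11% and 0.126%. The following windows show the matches in the clock genes, 30 bases each, with the matched letters in capitals.
Arntl, ROR element core (chr7:113207529-113207558, plus strand): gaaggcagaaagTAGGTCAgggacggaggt
Clock, shorter core on the opposite strand (chr5:76303604-76303633, minus strand): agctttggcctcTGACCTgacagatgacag
Nr1d2, shorter core (chr14:18239166-18239195, minus strand): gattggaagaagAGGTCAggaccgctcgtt
Per1, shorter core on the opposite strand (chr11:69098800-69098829, plus strand): gtgacacagcccTGACCTcagtgggggcca
Per1, E-box (chr11:69098771-69098800, plus strand): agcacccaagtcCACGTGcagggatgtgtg
Cry1, E-box (chr10:85185097-85185126, minus strand): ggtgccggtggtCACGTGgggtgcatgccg
Per3, first D-box (chr4:151044852-151044881, minus strand): cgacccgcgcgTTATGTAAggtactcgggg
Per3, second D-box (chr4:151044805-151044834, minus strand): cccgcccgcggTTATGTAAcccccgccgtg
Of the 9 genes Arntl alone held TAGGTCA, at position 31 from its second start site, and the shorter core lies inside that match. Elsewhere AGGTCA stood in Clock at -119, in Nr1d2 at -77 and in Per1 at -137, where a negative position lies before the start site. An E-box stood in Per1 at -166 and in Cry1 at -60, and both D-boxes of Per3 had the form TTATGTAA. A match is a description of letters, not of binding. No match was found in the promoters of Nr1d1, Cry2 and Dbp, which says only that these letters are not in those windows. The 250 bases before the start sites of Nr1d1 and Dbp are given because these genes had the largest fall and the largest rise without RORγt.
Nr1d1 (chr11:98775378-98775627, minus strand): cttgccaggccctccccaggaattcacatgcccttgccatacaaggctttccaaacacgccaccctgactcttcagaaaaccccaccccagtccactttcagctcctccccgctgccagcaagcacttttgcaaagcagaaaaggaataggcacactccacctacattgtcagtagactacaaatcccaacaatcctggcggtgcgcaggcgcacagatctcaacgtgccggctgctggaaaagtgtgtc
Dbp (chr7:45704997-45705246, plus strand): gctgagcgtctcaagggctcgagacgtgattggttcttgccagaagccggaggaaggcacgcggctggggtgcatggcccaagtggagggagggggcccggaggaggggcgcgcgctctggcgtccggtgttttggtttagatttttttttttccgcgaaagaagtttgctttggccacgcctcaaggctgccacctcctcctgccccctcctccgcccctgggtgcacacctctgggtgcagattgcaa

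The deposited values are log2 signals, so a difference of 1 is a 2-fold change. For a gene they can be compared between the arrays of an experiment, but not between genes. The labels do not say whether the 2 experiments were normalised together, which limits comparisons between them. To be tested, a probe set had to reach 7.85, the median of the whole table, on 2 or more arrays, and 11128 genes did so. Of the clock genes, 8 were above this value on all 8 arrays. Per2 was above it on the 4 arrays of the RORγt experiment and below it on the 4 of the SRC-3 experiment, and Per3 reached it on 1 array and was fitted without the filter. A gene counts as changed when its limma p-value, adjusted over all genes by Benjamini-Hochberg, is under 0.05. SEs and 95% intervals are those of this fit to all 8 arrays.

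**Figure D1:**
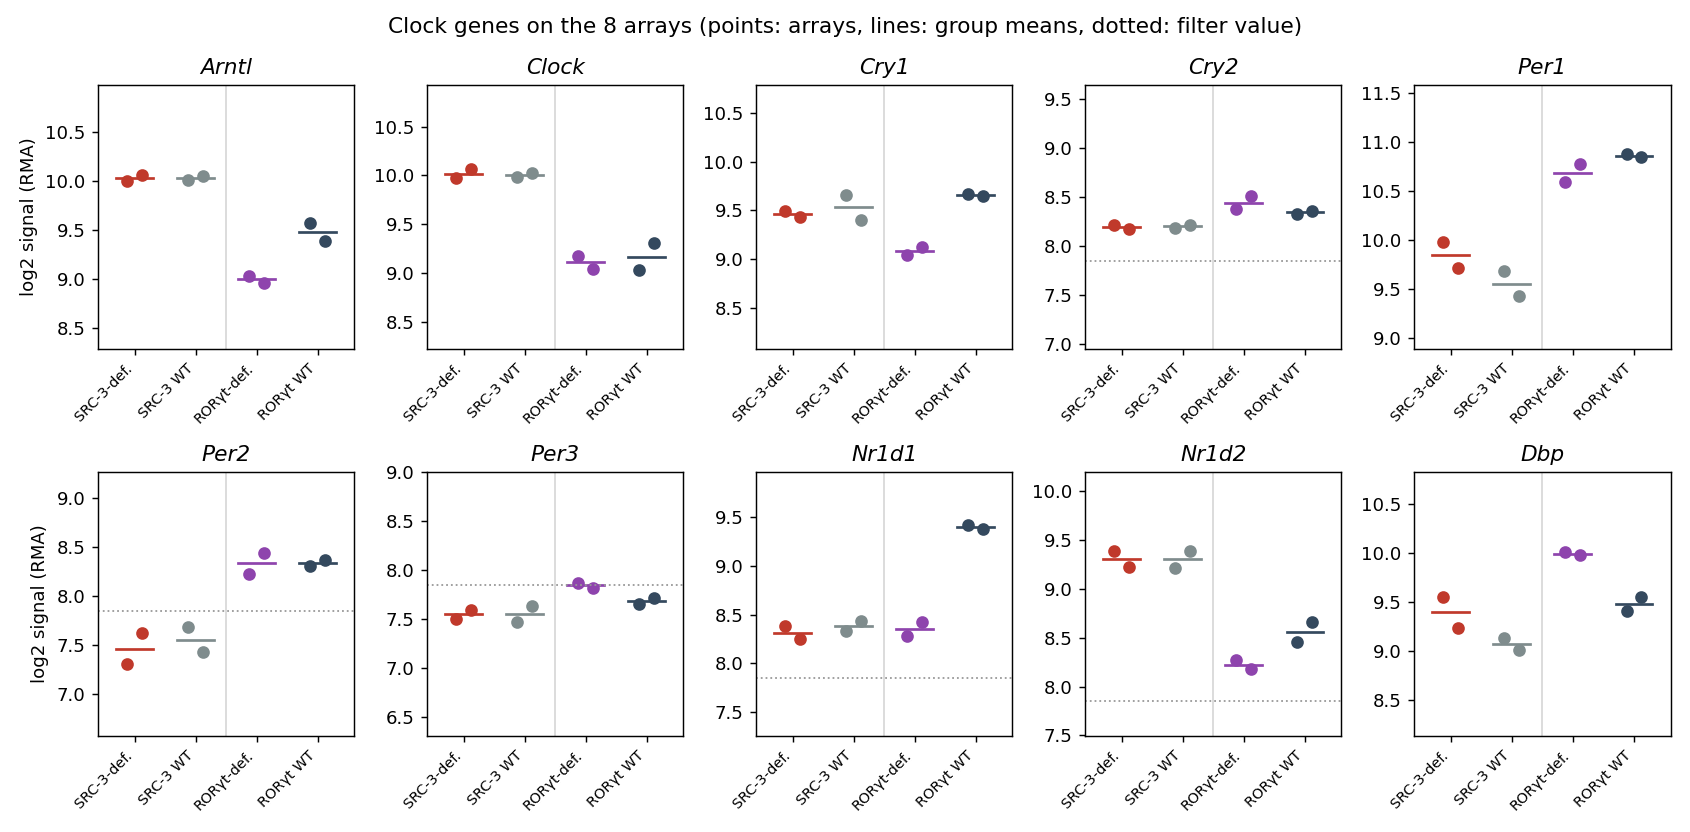
The log2 signal of each clock gene (vertical axis, with a span of the same size in each panel) on the 8 arrays, by group, with points for arrays, short lines for group means and a dotted line at the filter value of 7.85 where it falls in the panel. The RORγt-deficient arrays lie below their wild-type arrays for Nr1d1, Arntl and Cry1 and above them for Dbp, and the SRC-3 groups overlap for 8 of the 10 genes.

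Before the clock genes, the labels were checked. Ncoa3, the gene of SRC-3, was at 11.15 and 10.97 in SRC-3-deficient cells, against 11.76 and 11.53 in SRC-3 wild-type cells. Its log2 fold change of -0.58 missed the threshold (limma adjusted p = 0.0567). Of 5 tested Th17 markers, 4 fell without RORγt, with log2 fold changes of -4.11 for Il17a, -3.36 for Il17f, -3.23 for Il23r and -1.59 for Ccr6. Without SRC-3, Il17f passed at -1.03 (limma adjusted p = 0.0347), a call lost with the 4 arrays of that comparison alone (0.267), with array weights (0.0704) and without any 1 array but SRC-3 wild-type replicate 1 (0.0507 to 0.141). Il17a gave -1.10 without SRC-3 and missed the threshold (limma adjusted p = 0.0567). The T cell markers Cd3e, Cd3g, Cd3d, Cd4, Cd5 and Cd28 were above the filter on every array, and none of 5 myeloid markers was on any. Of 4 B cell markers, Ebf1 alone was above the filter. Xist, which females transcribe from the inactive X chromosome, was at 6.37 and 6.08 on the RORγt-deficient arrays, against 12.55 and 12.76 on their wild-type arrays. In the SRC-3 experiment it was at 7.10 and 13.60 in deficient cells, against 13.65 and 13.52 in wild-type cells. In the RORγt comparison the sex of the mice and the genotype therefore cannot be told apart.

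RORγt-deficient cells set against wild-type cells show which clock transcripts differ when this receptor is missing. Of the 10 genes, 3 fell (Nr1d1, Cry1 and Arntl), 1 rose (Dbp) and 6 did not pass the test. Across all genes tested 19.4% passed here, 10% higher and 9.37% lower. At an unadjusted p under 0.05 the count was 5 of the 10 clock genes and 34.6% of all genes. The median log2 fold change of the 9 tested clock genes was -0.18, beside 0.00 over all genes tested.

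Nr1d1 (probe set 10390691), the gene of the repressor REV-ERBα, had the largest change of the 10. RORγt-deficient cells gave log2 signals of 8.28 and 8.42, against 9.42 and 9.38 in wild-type cells. The groups lie far apart and the replicates close together. The deficient level was 0.481 of the wild-type level (log2 fold change -1.06, SE 0.08, limma adjusted p = 0.000485). Of the 11128 genes, 0.988% had a larger absolute change. The other gene of the REV-ERB pair, Nr1d2 (probe set 10417734), was at 8.27 and 8.18 on the deficient arrays, against 8.46 and 8.66 on the wild-type arrays. Its groups did not overlap, yet it missed the threshold (log2 fold change -0.33, 95% interval -0.57 to -0.10, limma adjusted p = 0.0530). Nr1d2 passed with the 4 arrays of this comparison alone (limma adjusted p = 0.0245). In the RefSeq annotation Nr1d1 overlaps Thra, the gene of thyroid hormone receptor α, which rose (log2 fold change 0.36, limma adjusted p = 0.0131) where Nr1d1 fell. Thra was picked after its value was seen, and its call was lost without any 1 of the 4 arrays (limma adjusted p 0.0565 to 0.0961).

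Arntl (probe set 10556463), which encodes the activator BMAL1 and carries the ROR element core shown above, was at 9.03 and 8.96 on the RORγt-deficient arrays, against 9.57 and 9.39 on the wild-type arrays. Both deficient arrays were lower than both wild-type arrays, and the level was 0.715 of wild type (log2 fold change -0.48, SE 0.07, limma adjusted p = 0.00591). Clock (probe set 10530733), the gene of its partner, did not pass. It was at 9.18 and 9.04 on the deficient arrays, against 9.03 and 9.31 on the wild-type arrays, and these overlap (log2 fold change -0.06, 95% interval -0.30 to 0.18).

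Among the genes whose proteins close the loop by inhibiting BMAL1 and CLOCK, Cry1 fell and the others did not pass. Cry1 (probe set 10371400) was at 9.04 and 9.13 on the RORγt-deficient arrays, against 9.67 and 9.65 on the wild-type arrays. The deficient level was 0.671 of wild type, with no overlap (log2 fold change -0.58, SE 0.09, limma adjusted p = 0.00657). Its close relative Cry2 (probe set 10485170) was at 8.38 and 8.51 on the deficient arrays, against 8.33 and 8.36 (log2 fold change 0.10, 95% interval -0.05 to 0.25). Per1 (probe set 10377439), a Period gene that outside signals induce quickly, was at 10.59 and 10.78, against 10.88 and 10.85 on the wild-type arrays (log2 fold change -0.18, 95% interval -0.46 to 0.09). For Cry2 and Per1 the groups did not overlap, and both intervals include 0. Per2 (probe set 10356601) was at 8.23 and 8.44 on the deficient arrays, against 8.31 and 8.37 (95% interval -0.30 to 0.29). The dim Per3 (probe set 10518781) was at 7.87 and 7.82, against 7.65 and 7.71 on the wild-type arrays (log2 fold change 0.17, limma adjusted p = 0.237).

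The output gene Dbp (probe set 10553092) moved the other way. It was at 10.01 and 9.98 on the RORγt-deficient arrays, against 9.41 and 9.55 on the wild-type arrays, without overlap. That is a 1.43-fold rise (log2 fold change 0.51, SE 0.11, limma adjusted p = 0.0165). Sphk2, a sphingosine kinase gene that overlaps Dbp in the annotation and was picked for that afterwards, missed the threshold at a log2 value of 0.16 (limma adjusted p = 0.0978). The RORγt-deficient and wild-type values did not overlap for 8 of the 10 clock genes, 3 higher and 5 lower, a share near the 70% of all genes for which this held.

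**Figure D2:**
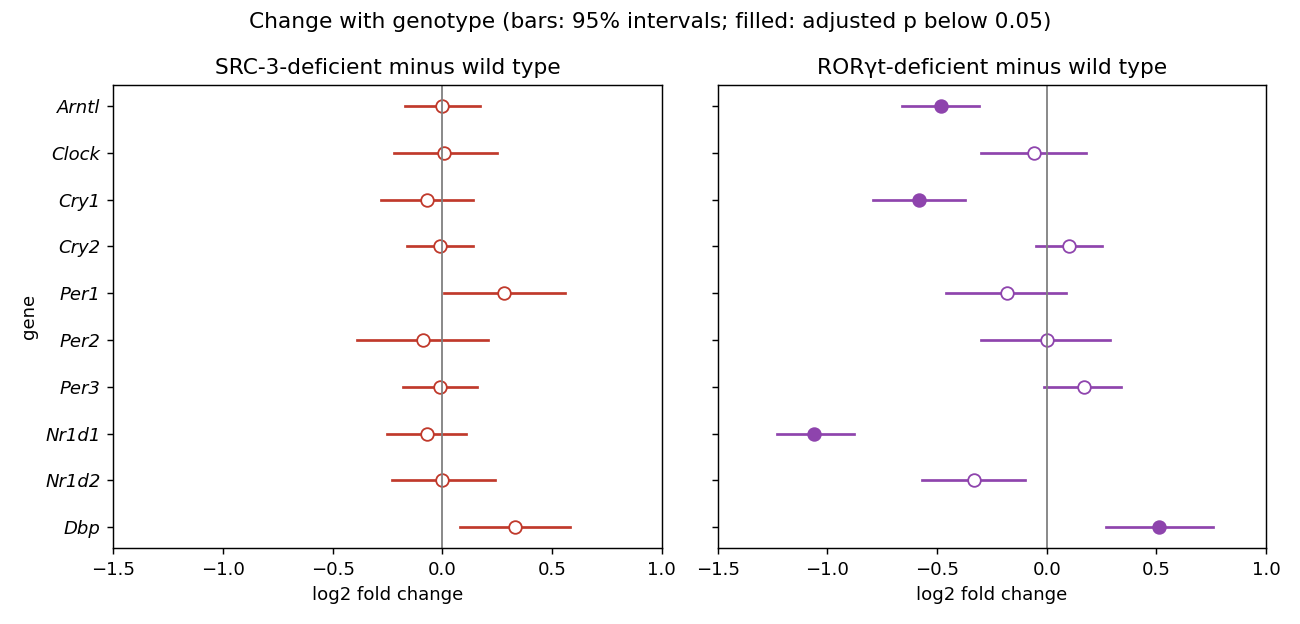
Log2 fold change (horizontal axis) of each clock gene without SRC-3 (left) and without RORγt (right), each against the wild type of its experiment, with 95% intervals and filled points where the adjusted p is under 0.05. Filled points appear in the RORγt panel alone, at -1.06 for Nr1d1, -0.58 for Cry1, -0.48 for Arntl and 0.51 for Dbp.

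The calls of Nr1d1 and Arntl were kept whichever of the 8 arrays was left out (highest limma adjusted p 0.00981 and 0.0435). That of Dbp was lost without any 1 of the 4 arrays of this experiment (log2 fold change 0.44 to 0.58, limma adjusted p 0.0638 to 0.109). That of Cry1 was lost without RORγt-deficient replicate 1 or either wild-type replicate (-0.59 to -0.53, limma adjusted p 0.0504 to 0.0594). Other transcripts moved with this genotype. The 4 proliferation markers summed to a log2 level of 14.57 and 14.45 on the RORγt-deficient arrays, against 14.08 and 14.02, with Top2a past the threshold (log2 fold change 0.56, limma adjusted p = 0.0260). The 5 CD8 T and NK markers summed to 10.32 and 10.20, against 9.71 and 9.73, and Klrd1 gave a log2 fold change of 1.90. It reached the filter on the 2 RORγt-deficient arrays alone (8.92 and 8.61, against 7.01 and 6.71), so it was tested through the group where it was high. Cd8b1 gave 0.18 (limma adjusted p = 0.229), and Cd8a, Ncr1 and Klrb1c were below the filter on every array. The 4 B cell markers summed to 10.45 and 10.45, against 11.52 and 11.65, but most of that signal was Ebf1, which was lower (-1.33, limma adjusted p = 0.0131). Cd79a (0.06), Ms4a1 (0.09) and Cd22 (0.09) were below the filter on every array, and none of them was lower. The calls of Top2a and Ebf1 were lost without any 1 of the 4 arrays (limma adjusted p 0.0631 to 0.152). The part of these markers in the clock gene changes was not tested. In bulk RNA, fewer cells of a type and less RNA per cell cannot be told apart.

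Among SRC-3-deficient cells, limma called 0 of the 10 clock genes against wild type, and 2 of them had an unadjusted p under 0.05. Across all genes 0.225% passed, 0.189% higher and 0.0359% lower, and 12.5% had an unadjusted p under 0.05. The median log2 fold change of the 9 tested clock genes was 0.00, and that of all genes 0.02. The 2 genes with an unadjusted p under 0.05 were Dbp and Per1, and both were higher in the deficient cells.

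SRC-3-deficient cells had Dbp at 9.55 and 9.24, against 9.13 and 9.01 in wild-type cells (log2 fold change 0.33, 95% interval 0.08 to 0.58, limma adjusted p = 0.280). Per1 was at 9.98 and 9.71, against 9.68 and 9.43 on the wild-type arrays (log2 fold change 0.28, 95% interval 0.01 to 0.56, limma adjusted p = 0.384). These were the only clock genes whose SRC-3 groups did not overlap, which held for 37.2% of all genes. For both, the lower deficient array was only a little above the higher wild-type array.

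The genes that fell without RORγt lay close to wild type here. SRC-3-deficient cells had Nr1d1 at 8.38 and 8.25, against 8.33 and 8.43 in wild-type cells (95% interval -0.25 to 0.11). Arntl was at 10 and 10.06, against 10.01 and 10.05 (95% interval -0.17 to 0.17). Cry1 was at 9.49 and 9.43, against 9.66 and 9.40 on the wild-type arrays (95% interval -0.28 to 0.14). The intervals of Nr1d1, Arntl and Cry1, from the spread shared by all 8 arrays, leave out changes as large as those measured without RORγt. Replicates lay further apart in the SRC-3 experiment. Their median SD over genes was 0.068 (deficient) and 0.074 (wild type), against 0.044 and 0.046 in the RORγt experiment. The shared spread may therefore make the SRC-3 intervals too narrow. The other 5 genes also overlapped between the groups. Clock was at 9.97 and 10.07 on the deficient arrays, against 9.98 and 10.03 (95% interval -0.22 to 0.25). Nr1d2 was at 9.39 and 9.22, against 9.21 and 9.39 on the wild-type arrays (-0.23 to 0.24), and Cry2 at 8.22 and 8.18, against 8.19 and 8.22 (-0.16 to 0.14). Per2, below the filter here, was at 7.31 and 7.62, against 7.68 and 7.43 (-0.39 to 0.21), and Per3 at 7.50 and 7.59, against 7.47 and 7.63 (-0.18 to 0.16).

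Whether the 2 genotypes differ in effect was tested as the SRC-3 change minus the RORγt change. Nr1d1 passed (difference 0.99, SE 0.11, limma adjusted p = 0.0101), where 1.67% of all genes did, 0.926% with a positive and 0.746% with a negative difference. This call was lost without RORγt-deficient replicate 1 (limma adjusted p = 0.0550), wild-type replicate 1 (0.0778) or wild-type replicate 2 (0.0645) of the RORγt experiment. The differences of Arntl (0.48, limma adjusted p = 0.0730) and Cry1 (0.50, limma adjusted p = 0.104) missed the threshold. For Dbp, which passed without RORγt but not without SRC-3, the difference was -0.18 (95% interval -0.53 to 0.17). Its changes were thus not shown to differ.

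The wider clock network was described from lists of further clock genes. In the list of E-box and D-box factors, Bhlhe40 fell without RORγt and the other 3 tested members did not pass. Bhlhe40 encodes DEC1, a repressor that competes for E-boxes, and was at 11.85 and 11.88 on the deficient arrays, against 12.50 and 12.54 on the wild-type arrays. The gap was many times the difference between replicates (log2 fold change -0.65, SE 0.06, limma adjusted p = 0.00151). Nfil3, whose protein opposes DBP at D-boxes, gave -0.30 (limma adjusted p = 0.0826), and Tef, a relative of Dbp, gave -0.22 (limma adjusted p = 0.0790). Ciart, a repressor of CLOCK and BMAL1, gave -0.32 (limma adjusted p = 0.248). The median of these 4 was -0.31. Of the other ROR genes, Rora gave -0.02 without RORγt (95% interval -0.39 to 0.35) and -0.40 without SRC-3 (limma adjusted p = 0.360), and Rorb was below the filter on every array. Arntl2, a further gene of the lists, gave 0.07 without RORγt and 0.36 without SRC-3 (95% interval 0.12 to 0.60, limma adjusted p = 0.220).

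Of 7 clock output genes tested, 2 fell without RORγt, Usp2 and Klf10, and none rose. Usp2, a deubiquitinase gene that cycles with the clock in many mouse tissues, was at 8.62 and 8.79 on the RORγt-deficient arrays, against 9.29 and 9.28 (log2 fold change -0.58, SE 0.07, limma adjusted p = 0.00302). Klf10, a zinc finger factor gene, gave -0.23 (limma adjusted p = 0.0397), a call lost without any 1 of 6 arrays, with no filter, with a stricter one or after a shift to 1 median (limma adjusted p 0.0519 to 0.211). The list's median was -0.06. None of the 8 tested genes in the list named for turnover and modification of clock proteins passed. The values nearest to a call were 0.30 for Timeless (limma adjusted p = 0.115) and 0.16 for Btrc (limma adjusted p = 0.207). Timeless stands here only because the list held it, not as a gene of protein turnover. None of the 4 coregulator genes passed either, with 0.23 for Ncoa2 (limma adjusted p = 0.0586) and -0.18 for Ncoa1 (limma adjusted p = 0.0811). Bhlhe40 and Usp2 also differed between the genotype effects (both 0.65, limma adjusted p = 0.0203 and 0.0286), calls that leaving out single arrays could end (highest limma adjusted p 0.115 and 0.141). Without SRC-3, Bhlhe40 gave 0.00 and Usp2 0.07.

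**Figure D3:**
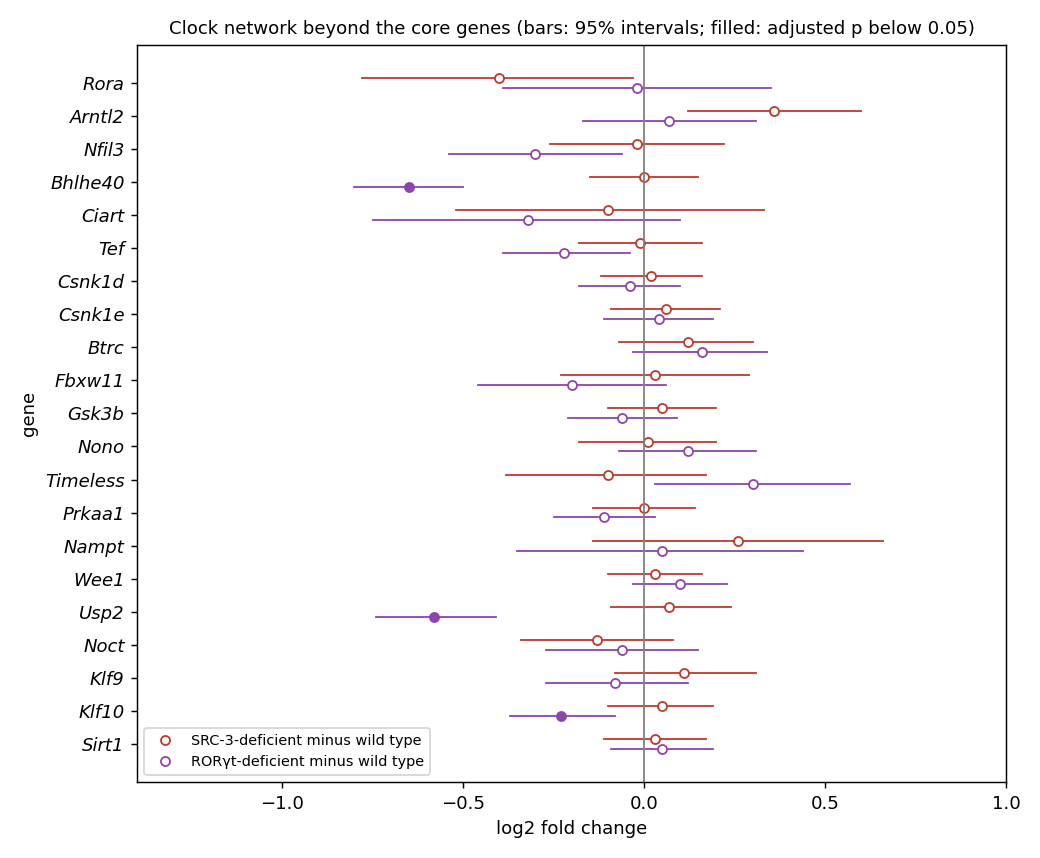
Log2 fold change (horizontal axis) of the tested clock network genes beyond the 10 core genes, without SRC-3 (upper mark of each gene) and without RORγt (lower mark), with 95% intervals and filled points where the adjusted p is under 0.05. Bhlhe40, Usp2 and Klf10 are filled without RORγt, at -0.65, -0.58 and -0.23, and no gene is filled without SRC-3.

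Lists of glucocorticoid-induced genes and of CREB and immediate early genes were also described. Of 4 tested genes that glucocorticoids induce, Sgk1 rose without RORγt (log2 fold change 0.92, SE 0.09, limma adjusted p = 0.00119) and the other 3 did not pass. Sgk1, a kinase gene, gave -0.36 without SRC-3 (limma adjusted p = 0.155), and its 2 changes differed (limma adjusted p = 0.00596). None of the 7 CREB and immediate early genes passed in either genotype comparison. Across all genes 19.4% passed without RORγt and 0.225% without SRC-3. Without SRC-3 all 7 had a positive value and the median was 0.31, beside 0.02 over all genes tested. Crem gave 0.38 (limma adjusted p = 0.146) and Nr4a2 0.57 (limma adjusted p = 0.316). Nr4a2 gave 0.94 without wild-type replicate 1, where it passed (limma adjusted p = 0.0190), and 0.20 without wild-type replicate 2. SRC-3-deficient cells had summed log2 levels of 13.17 and 12.94 for this list, against 13.05 and 12.44 in wild-type cells, so wild-type replicate 2 was the lowest. The same array had the lowest Dbp and Per1 in this experiment. Without it, Dbp gave 0.27 and Per1 0.16 in the SRC-3 comparison. Without deficient replicate 1, which had the highest of both, they gave 0.18 and 0.15. Deficient replicate 1 was also the array with Xist at 7.10, against 13.52 to 13.65 on the other arrays of this experiment. The part of sex in these values was not tested.

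The wild-type cells of the 2 experiments carry no labelled difference, and their comparison shows how far clock transcripts stand apart between experiments. Of the 10 clock genes 7 passed, 3 higher and 4 lower in the SRC-3 experiment, but 58.5% of all genes passed too, 27.3% higher and 31.2% lower. At an unadjusted p under 0.05 it was 7 clock genes and 63.7% of all genes. Array batch, normalization, mice and time of harvest cannot be told apart here. After a shift of all arrays to 1 median the split was 3 higher and 7 lower. That shift moved the median of all genes to -0.15, where it had been -0.02. Quantile normalization run again gave 3 higher and 6 lower.

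Per1 differed most, at 9.68 and 9.43 in wild-type cells of the SRC-3 experiment, against 10.88 and 10.85 in those of the RORγt experiment (log2 difference -1.31, SE 0.12, limma adjusted p = 0.000112). Nr1d1 was lower in the SRC-3 experiment by a log2 difference of -1.02 (limma adjusted p = 5.97e-05), and Per2 by -0.78 (limma adjusted p = 0.00153). Per2 passed the filter through the arrays on which it was high, so it had to differ. Dbp was lower as well (-0.41, limma adjusted p = 0.0118), a call lost without wild-type replicate 2 of either experiment (limma adjusted p 0.0557 and 0.0807). In the opposite direction Clock was higher by 0.84 (limma adjusted p = 0.000383), Nr1d2 by 0.74 (limma adjusted p = 0.000600) and Arntl by 0.55 (limma adjusted p = 0.000575). Cry1 gave -0.13 (95% interval -0.34 to 0.08) and Cry2 -0.14 (-0.28 to 0.01). For 9 of the 10 genes the wild types did not overlap, beside 80.3% of all genes.

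Further genes of the lists stood apart in the same comparison, in which 58.5% of all genes passed, 27.3% higher and 31.2% lower. All 4 tested E-box and D-box factors were lower in the SRC-3 experiment, with Ciart at 8.63 and 8.58, against 10.70 and 10.85 (log2 difference -2.17, limma adjusted p = 9.05e-05). Nfil3 gave -1.25, Bhlhe40 -0.75 and Tef -0.21. Of the 7 CREB and immediate early genes 6 were lower, with Nr4a2 at -0.80, Crem at -0.41, Fos at -0.34 and Fosb at -0.32 after Nr4a1 (-1.59, limma adjusted p = 0.00538) and Sik1 (-1.02, limma adjusted p = 0.00102). Of the output genes, Noct (-0.72) and Usp2 (-0.46) were lower and Klf10 and Sirt1 (both 0.39) higher. Of the turnover genes, Fbxw11 (-0.42), Csnk1d (-0.40) and Csnk1e (-0.24) were lower and Prkaa1 (0.37) higher. Fkbp5 (0.55) and Sgk1 (0.45) were higher. The proliferation markers Mki67 (0.84) and Top2a (0.38) were higher too. Of the Th17 markers, Il17a (-1.25), Ccr6 (-0.68) and Il17f (-0.64) were lower and Rora did not pass. Il23r was higher (0.52), a call that leaving out a single array could end. Of the T cell markers, Cd3e (-0.79) was lower and Cd28 (0.28) higher. Ebf1 (-1.52) and Cd8b1 (-0.55) were lower, and Klrd1, below the filter on these arrays, was higher (0.67). The part of all these markers in the differences was not tested. The calls of Nr4a2, Tef, Csnk1e, Fbxw11, Fosb and Top2a were each lost without at least 1 single array (limma adjusted p 0.0501 to 0.209).

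Over the 8 arrays, with the mean of each experiment taken off, the genes whose signal ran most like Nr1d1 were Emc6 (Pearson r = 0.994), a subunit gene of the ER membrane protein complex, Cpeb2 (0.993), an RNA-binding protein gene, and Eef1d (0.992), a translation elongation factor gene. Those most like Dbp were Gas2 (0.996), Antxr2 (0.993), an anthrax toxin receptor gene, and Zfp444 (0.992). These values rest on 8 arrays, and Nr1d1 and Dbp were chosen for their change without RORγt. Of the 11128 genes tested, 150 had an r over 0.95 with Nr1d1 and 113 with Dbp.

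**Figure D4:**
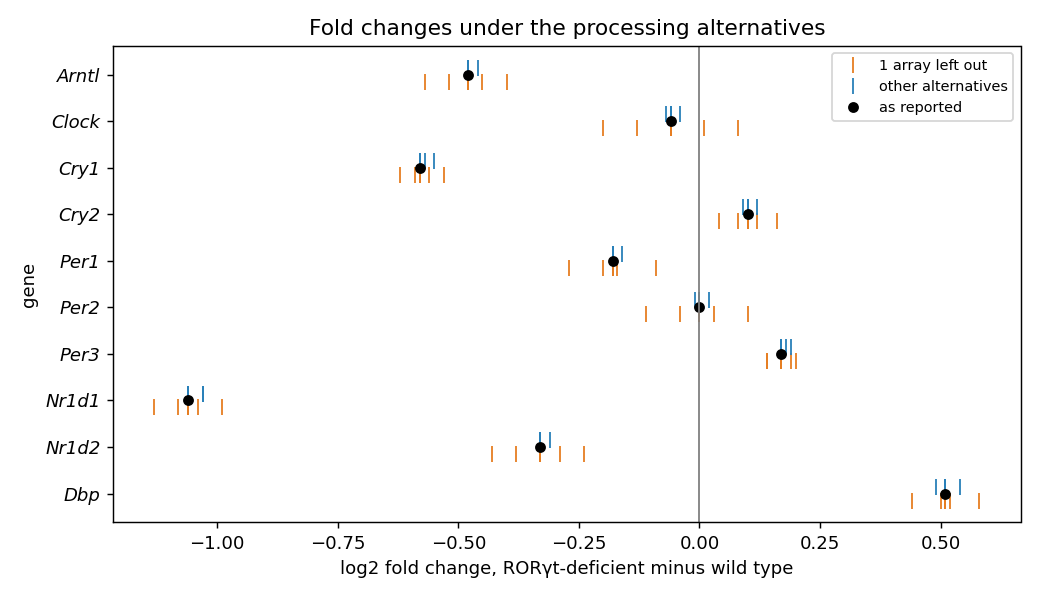
Log2 fold change of each clock gene without RORγt (horizontal axis) as reported (black), with 1 array left out (orange) and under the other alternatives (blue). Nr1d1 stays between -1.13 and -0.99, Cry1 between -0.62 and -0.53, Arntl between -0.57 and -0.40 and Dbp between 0.44 and 0.58, while Clock and Per2 cross 0.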

How the data were processed

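Biotinylated cRNA was made from Trizol-extracted RNA, per the labels' protocols. The deposited values are log2 signals. The submitters' processing notes name RMA and Affymetrix Expression Console for them, and a version is not given in the sources used here. The 35556 probe sets span 3.50 to 15.03 and were used as deposited. Symbols came from the platform table, and the 21789 probe sets with 1 symbol were used, the brightest standing for its gene. The gene IDs of all 10 clock genes matched RefSeq. Some genes of the lists are not reported here.

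Group means of all 8 arrays were fitted with limma 3.58.1 in R 4.3.3 (4 residual and 3.53 prior degrees of freedom), without a batch term, and tests were two-sided. The fit was tested on simulated data, with 100 genes changed at each size in the RORγt comparison. It recovered 72% of 1.5-fold and 97% of 2-fold changes, with 10 false calls. Changes of about 1.5-fold can thus be missed. A batch label was not given. The median log2 signal was 7.904 to 7.927 on the SRC-3 arrays and 7.764 to 7.804 on the RORγt arrays. The replicate numbers do not pair the samples, since no label ties them together.

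The clock genes and the lists were chosen with earlier results of these data known. All 10 clock genes are named, as are list genes past the threshold, up to 6 per list by smallest p, or otherwise up to 2. Clock-gene likeness is given for the largest fall and rise. Alternatives covered normalization, filter, probe sets, samples, prior, weights, block, threshold and leaving out each array.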

Additional observations from a re-analysis of the deposited data

Results flagged for a closer look

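By the test of the SRC-3 change minus the RORγt change, the effects of the 2 genotypes differed for 10 of the genes named above. Of these, 5 were from the lists of clock and related genes and 5 from the cell type markers. Across all genes tested 1.67% passed, and of the 10 core clock genes Nr1d1 alone did. Many list genes were named because they had passed a threshold, so this count is not a share. The difference on the log2 scale was 0.99 for Nr1d1, which fell to 0.481 of wild type without RORγt and was at 0.953 without SRC-3. It was 0.65 for Bhlhe40 and 0.65 for Usp2, which fell without RORγt to 0.638 and 0.669. For Sgk1 it was -1.28, with 0.782 of wild type without SRC-3 and 1.89-fold without RORγt. For Ncoa3, the gene of SRC-3, it was -0.76. Each of these calls was lost without at least 1 single array (highest limma adjusted p 0.0778 for Nr1d1, 0.115 for Bhlhe40, 0.141 for Usp2, 0.0513 for Sgk1 and 0.166 for Ncoa3). Among the markers the difference was 3.01 for Il17a, 2.33 for Il17f, 2.55 for Il23r, 1.80 for Ccr6 and -2.37 for Klrd1, which reached the filter on the 2 RORγt-deficient arrays alone. Of these, the call of Ccr6 was lost without either RORγt wild-type replicate (limma adjusted p = 0.0525 and 0.0512). In the RORγt comparison Xist moved with genotype, and sex and genotype cannot be told apart.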

How the results depend on the processing

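The counts of clock genes past the threshold were 0 without SRC-3 under every alternative run, and without RORγt 4 as reported and 4 or 5 under the alternatives that kept all arrays of that comparison. Leaving out 1 array gave 2 to 5 without RORγt, 0 to 2 for the difference of the effects and 6 to 8 between the wild types. For the difference of the effects, where 1 gene passed, the replicate block gave 4 and a threshold of 0.10 gave 2. The replicate numbers are no stated pairing: replicate differences of the deficient and wild-type groups correlated with r = 0.536 in the SRC-3 experiment and 0.002 in the RORγt experiment, across genes. With the block, 301 genes passed without SRC-3 (25 as reported), 3411 without RORγt (2157 as reported) and 945 for the difference (186 as reported). With the 4 arrays of a comparison alone, limma called 0 genes without SRC-3 (827 at an unadjusted p under 0.05) and 3389 without RORγt. Array weights gave 10 and 3679. Without SRC-3 a stricter filter gave 14 genes, a trended robust prior 47 and a threshold of 0.10 gave 129. For the difference, the stricter filter gave 119 genes and the threshold of 0.10 gave 470. Between the wild types, where 6508 passed, no filter gave 9918 and the stricter filter 4144. With 1 array left out, 0 to 61 genes passed without SRC-3 (0 without wild-type replicate 2, with 1457 at an unadjusted p under 0.05), 486 to 2539 without RORγt and 15 to 264 for the difference. The counts without RORγt were 486 and 1001 when deficient replicate 1 or 2 was left out, and 626 and 558 when wild-type replicate 1 or 2 was. Signs turned only for values near 0. Without SRC-3, Clock gave -0.03 after quantile normalization and 0.00 after the median shift, Nr1d2 -0.03 and -0.01, and Bhlhe40 -0.02 and -0.02. Without RORγt, Per2 gave 0.02 and Rora 0.00 after the median shift. With 1 array left out, the SRC-3 values ran from -0.03 to 0.03 for Arntl, -0.03 to 0.06 for Clock, -0.09 to 0.10 for Nr1d2, -0.25 to 0.07 for Per2, -0.09 to 0.07 for Per3, -0.20 to 0.06 for Cry1, -0.03 to 0.01 for Cry2 and -0.06 to 0.06 for Bhlhe40. The RORγt values ran from -0.20 to 0.08 for Clock, -0.11 to 0.10 for Per2 and -0.07 to 0.03 for Rora. Differences of the effects ran from -0.07 to 0.22 for Clock and -0.24 to 0.07 for Per2, and Cry1 between the wild types from -0.26 to 0.00. The causes were not tested.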
